A study of Homo sapiens with 12 samples.

Results

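SK-MEL-2 cells given 3 agents at once were compared with cells given vehicle. SK-MEL-2 is an established human melanoma line with an activating mutation of NRAS and unmutated BRAF. The 6 arrays compared were chosen by their sample titles, 3 for all 3 agents (DTE) and 3 for DMSO, from 12 arrays in the series. DTE cells received dabrafenib at 100 nM, trametinib at 10 nM and entinostat at 1 µM for 24 hours, and DMSO cells received the solvent for the same time. The other 6 arrays, 3 of dabrafenib plus trametinib at those doses (DT) and 3 of entinostat at that dose (E), served to show where DTE differed from its parts. All arms were the same line in the same medium, and no arm held dabrafenib or trametinib on its own. The replicates are biological in the sample titles and technical in the series text, so p-values cover no more than the spread among these arrays.

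Dabrafenib blocks RAF kinases and trametinib blocks MEK1 and MEK2, the kinases that pass a signal from RAS to ERK. Active ERK raises transcription of immediate early genes, of MYC and cyclin D1, and of its own feedback inhibitors, and so drives entry into the cell cycle. In cells with active RAS and unmutated BRAF, RAF inhibitors of this kind can raise rather than lower ERK activity, and MEK inhibition acts below that step. Entinostat blocks class I histone deacetylases, which remove acetyl groups from histones as parts of repressor complexes. One such complex, assembled by the repressor REST on its element RE1, keeps neuronal genes silent in other tissues. Melanocyte identity is held by MITF, SOX10 and PAX3, which maintain the pigment genes.

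Whole-transcript Affymetrix arrays gave 1 linear intensity per probe set, and 14582 genes were tested. Across genes, which are not independent replicates, log2 intensities correlated at 0.991 to 0.994 within an arm and at 0.951 to 0.979 between arms. The DTE arrays were dimmer than the rest. The geometric mean intensity of genes above the median was 138.7, 136.7 and 111.7 in the DMSO arrays and 61.2, 66.7 and 68.5 in the DTE arrays. The groups did not overlap, and DTE stood at 50.9% of DMSO (log2 difference -0.97, two-sided exact permutation p = 0.1, the smallest that 3 arrays against 3 allow). In bulk RNA, fewer cells and less RNA per cell cannot be told apart, how the authors scaled the arrays to each other is not stated, and the part of that scaling in the level was not tested. The dimmest genes did not share the shift in intensity. The median difference was -0.0034 in the dimmest 10% of genes and -1.06 in the brightest 10%. The dimmest 10% had mean intensities of 2.69 to 6.76. These lie below the level taken as background further on, 11.1 to 13.4 on the DTE and DMSO arrays, so a change in their RNA could not be seen.

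**Figure D1:**
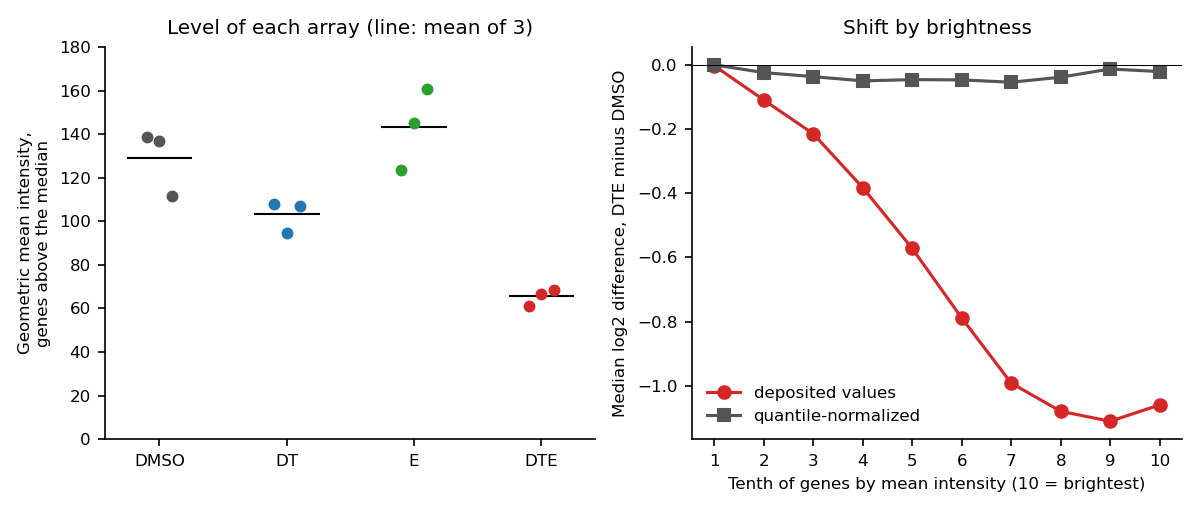
Left, geometric mean intensity of genes above the median on each array (points) with the mean of 3 arrays per arm (line). The DTE arrays lie at 61.2 to 68.5, below the DMSO arrays at 111.7 to 138.7. Right, the median log2 difference between DTE and DMSO in 10 groups of genes ordered by mean intensity, in deposited values and after quantile normalization.

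Because of this shift every difference is given on 2 scales, first the deposited values and then, as the quantile value, after the arrays were brought to 1 distribution. The quantile value shows how a gene moved relative to genes of its own brightness. Intensities per array are deposited values. The order of arrays between arms is read from them unless said otherwise, and so holds the shift. A gene is said to have risen or fallen when limma's adjusted p was under 0.05 in the same direction on both scales. By that rule 618 genes rose in DTE (4.24% of those tested) and 3245 fell (22.3%). Deposited values alone gave 621 higher (4.26%) and 8869 lower (60.8%), and quantile values alone gave 2989 higher (20.5%) and 3272 lower (22.4%), so the deposited scale set the number of rises and the quantile scale the number of falls. A further 1153 genes (7.91%) were lower in deposited and higher in quantile values, and no direction is given for them. Calls whose DTE and DMSO arrays also did not overlap on either scale numbered 574 higher (3.94%) and 3137 lower (21.5%). Of the genes that rose, 117 rose at least 2-fold on both scales. Of those that fell, 2613 fell at least 2-fold in deposited values and 316 on both scales.

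UCN2 and SPRY4 fell furthest of the 15 deepest falls, and MYC was also among the 15. UCN2, which encodes the stress peptide urocortin 2, had intensities of 1608, 1916 and 1341 in DMSO and 42.3, 35.99 and 29.7 in DTE. The difference was 45.05-fold (-5.49 ± 0.17 on the log2 scale, SE, limma adjusted p = 2.1e-16, quantile -4.57). SPRY4, which damps signals from receptor tyrosine kinases to RAS, read 976, 982 and 754 in DMSO and 37, 32.3 and 32.2 in DTE, which was 26.6-fold lower (quantile -3.77). For MYC, a transcription factor for growth genes, the DMSO arrays read 261, 277 and 198 and the DTE arrays 30.1, 33.3 and 39.8, 7.10-fold lower (quantile -1.85). MYC read 47.8, 35.99 and 39.5 in DT and 74.95, 106 and 108 in E, so both of those arms also lay below every DMSO array.

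Among the other 12 of the 15 deepest falls were genes of several functions. They included RLBP1, a retinaldehyde-binding protein (10.8-fold, quantile -2.47), and ANKS1A, an adaptor of Eph receptors (10.6-fold, quantile -2.32). PHF19, an accessory subunit of the Polycomb repressive complex PRC2, was 8.13-fold lower (quantile -2.02), and DUSP4, a phosphatase of ERK, 7.80-fold lower (quantile -1.98). CSPG4, the melanoma-associated chondroitin sulphate proteoglycan, read 166, 223 and 117 in DMSO and 18.8, 24.9 and 25.5 in DTE (7.13-fold, quantile -2.02). NPPC, the precursor of C-type natriuretic peptide, fell 7.07-fold (quantile -2.20), and FXYD3, a regulator of the sodium pump, 7.19-fold (quantile -2.24). The remaining genes of this group were TRIM48, the antisense RNA PRR7-AS1, SCFD2, ZNF114 and the tRNA-modifying enzyme DUS3L, between 6.85-fold and 11.6-fold lower.

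In deposited values, where every DTE array was dimmer as a whole, the largest rises were smaller than the largest falls. In quantile values STC1 (3.89), PCDH10 (3.81) and TSPAN13 (3.79) moved further than SPRY4 (-3.77), and UCN2 (-4.57) further than all of these. STC1, which encodes the secreted glycoprotein stanniocalcin 1, read 23.3, 19.7 and 13.6 in DMSO and 139, 152 and 195 in DTE, 8.70-fold higher (3.12 ± 0.17 on the log2 scale, limma adjusted p = 2.2e-12, quantile 3.89). The tetraspanin TSPAN13 read 17.7, 21.4 and 17.1 in DMSO and 121, 156 and 189 in DTE (8.22-fold, quantile 3.79). PCDH10, a protocadherin of cell contacts in the brain, read 31.8, 24.7 and 30.5 in DMSO and 235, 216 and 249.9 in DTE (8.09-fold, quantile 3.81). The choice of these genes required that their DTE and DMSO arrays did not overlap. Mean intensity was 323 in E and 16.8 in DT for TSPAN13, and 321 and 61.1 for PCDH10. In deposited values the DTE arrays as a whole stood at 46.0% of E and 63.5% of DT. FLG, the filaggrin of the skin barrier, was 6.38-fold higher (quantile 3.50), and KIF5C, a kinesin heavy chain of neurons, 5.55-fold higher (quantile 3.22).

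For 6 of the 15 largest rises the DMSO arm was not well above background, which was set from the dimmest 25% of genes (their 95th percentile), so only a lower bound of the fold is given. GSTA2, a glutathione transferase, read 7.43, 6.02 and 4.93 in DMSO against 56.3, 65.1 and 40.97 in DTE, at least 4.11-fold higher. Whether its probes also bind close relatives in the GSTA family was not tested. SLIT2, a secreted guidance ligand of ROBO receptors, read 10.7, 8.02 and 7.95 against 36.5, 41.9 and 50.4, at least 3.30-fold higher. The other 4 were JAKMIP2, CCDC110, EBLN1 and PRUNE2, with bounds between 3.11-fold and 4.41-fold. STX17-DT, COXFA4L3, CDKL2 and TMEM45A, which were above background in both arms, rose 3.59-fold to 4.63-fold.

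**Figure D2:**
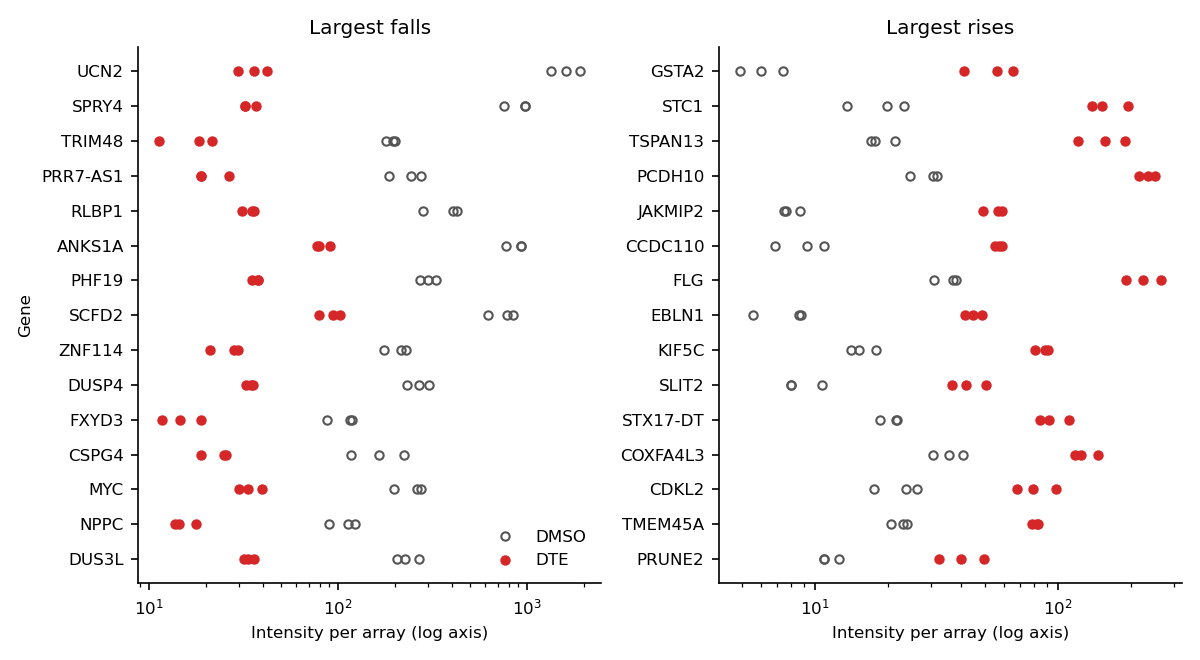
Intensity on each of the 3 DMSO arrays (open grey) and 3 DTE arrays (red) for the 15 largest falls and the 15 largest rises, on a log axis. The DMSO and DTE arrays do not overlap for any of these genes, which the choice of the genes required.

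Most genes that report ERK activity fell. Of 22 genes measured from a list of 28, 16 fell and none rose, with a median difference of -1.58 (quantile -0.75, or -0.63 with genes not well above background at their bound). Over all genes tested 22.3% fell and the medians were -0.54 and -0.03. DUSP6, which removes phosphate from ERK in the cytoplasm, read 395, 436 and 382 in DMSO, 184, 175 and 199.8 in DT, 434, 482 and 539.5 in E and 58.98, 64.9 and 57.3 in DTE (6.69-fold lower than DMSO, quantile -1.68). FOSL1, an AP-1 subunit, read 244, 245 and 230.1 in DMSO, 114, 104 and 101 in DT and 34.2, 44.2 and 36.9 in DTE (6.26-fold lower, quantile -1.64). For both genes, in deposited values, every DTE array lay below every DT array, and every DT array below every DMSO array.

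Of the ETS factors that ERK activity maintains, ETV5 had that order in deposited values and ETV4 did not. ETV5 read 279.8, 261 and 206 in DMSO, 67.8, 54.3 and 66.2 in DT and 42.9, 42.4 and 47.8 in DTE (5.57-fold lower than DMSO, quantile -1.44). ETV4 read 279.9, 278 and 234 in DMSO, 33.6, 26.4 and 31.9 in DT and 39.7, 45.5 and 44.2 in DTE (6.11-fold lower, quantile -1.58), so its DTE arrays lay above its DT arrays. KLF10, IER3, EPHA4 and HBEGF, chosen after their values were seen, were lower in deposited values (-0.74, -0.71, -0.57 and -0.56) and higher in quantile values (0.36, 0.38, 0.32 and 0.34), and no direction is given for them. Of the targeted kinases measured here, MAP2K1 (MEK1) was -1.01 in deposited and 0.09 in quantile values, and MAP2K2 (MEK2) -0.54 and 0.27, so their direction turned with the scale, and the deposited call of MAP2K2 was lost without DTE replicate 3 (-0.42). ARAF, the one RAF kinase measured, fell 3.56-fold (quantile -0.79).

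Genes of the step from G1 into S phase fell with them. Of 20 genes measured out of 21 listed, 15 fell (75%, against 22.3% of all genes) and 1 rose (5%, against 4.24%). Their median was -1.65 (quantile -0.73). Cyclin D1, CCND1, which activates CDK4 and CDK6, read 587, 571 and 534 in DMSO and 133, 145 and 163 in DTE (3.84-fold lower, quantile -0.86). Its partner CDK4 read 1001, 1121 and 851 in DMSO and 230.4, 246 and 239 in DTE (4.13-fold lower, quantile -1.04). The phosphatase CDC25A and the transcription factor E2F3 fell 4.21-fold and 5.13-fold (quantile -1.31 and -1.33). Against these, cyclin D2, CCND2, rose from 15.5, 18.7 and 16.4 to 31.9, 33.3 and 24.6 (1.77-fold, quantile 1.41), and it read 18.4, 18 and 10.9 in DT and 50.4, 54.6 and 67.7 in E, where every array lay above those of the other arms. In deposited values the DTE arrays as a whole stood at 46.0% of E, and the part of that level in this order was not tested.

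DNA replication genes had the lowest median of the lists described. Of 24 genes measured out of 51 listed, 21 fell (87.5%, against 22.3% of all genes) and none rose. Their median was -1.99 (quantile -0.92). GINS2, a subunit of the replicative helicase, read 227, 238 and 204 in DMSO, 50.7, 41.5 and 41.7 in DT, 167, 182 and 227 in E and 39.5, 37.9 and 28.5 in DTE (6.36-fold lower than DMSO, quantile -1.68). The helicase subunit MCM3 read 441, 472 and 385 in DMSO, 112, 103 and 122 in DT, 314, 364 and 429.9 in E and 79.3, 86.3 and 86.3 in DTE (5.13-fold, quantile -1.27). In both genes the DT and DTE arrays lay below all DMSO and E arrays, and the median difference of the list between DTE and DT was -0.37 in deposited and 0.30 in quantile values. Thymidylate synthase, TYMS, and the flap endonuclease FEN1 fell 4.68-fold and 4.52-fold from DMSO (quantile -1.23 and -1.12).

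Replication genes are known targets of E2F factors, so the 250 bases before each gene start were searched on both strands for TTTGGCGC or TTTCCCGC, 2 forms of the E2F motif. A promoter was found in the RefSeq table (GRCh38.p14) for 10562 of the 14582 genes. Of 21 replication genes with a promoter, 9 held the motif (42.9%), against 2.67% of all genes tested and 1.96% of all 27305 promoters in the table. A match is a description and not a shown binding site. To show where the motif lies, the stretch around it is given for GINS2 (chr16:85688955-85689074, minus strand, the 120 bases before the start) and MCM3 (chr6:52284837-52284956, minus strand), with the motif in capitals. In GINS2 the match is on the strand opposite to the gene.
GINS2: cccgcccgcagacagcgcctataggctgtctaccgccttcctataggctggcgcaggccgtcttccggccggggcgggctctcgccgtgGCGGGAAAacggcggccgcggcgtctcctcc
MCM3: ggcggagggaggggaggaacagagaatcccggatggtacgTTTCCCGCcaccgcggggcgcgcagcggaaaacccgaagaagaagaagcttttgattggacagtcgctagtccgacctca

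Mitotic genes fell as well. Of 41 genes measured out of 54 listed, 32 fell (78%, against 22.3% of all genes) and none rose. Their median was -1.52 (quantile -0.53, or -0.51 with bounds). The spindle checkpoint protein MAD2L1 read 168, 161 and 147 in DMSO and 34.8, 29.2 and 27.96 in DTE (5.20-fold lower, quantile -1.44). NDC80, which joins kinetochores to microtubules, read 179, 169 and 146 in DMSO and 34.3, 33.4 and 36.6 in DTE (4.72-fold, quantile -1.25). Separase, ESPL1, which cuts cohesin, and FOXM1, a transcription factor of the G2 and M phases, fell 4.28-fold and 3.72-fold (quantile -1.41 and -0.82). Against DT the list's median was -0.23 in deposited and 0.39 in quantile values, and against E it was -1.76 and -0.62.

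Promoters of mitotic genes are known for a CHR element (TTTGAA) near the start and for CCAAT boxes upstream of it. Among 35 mitotic genes with a promoter, 20 held TTTGAA on either strand (57.1%, against 10.4% of all genes tested) and 28 held CCAAT (80%, against 34.4%). None of the motifs searched holds the letters of another. The 120 bases before the start are given for PRC1 (chr15:90994536-90994655, minus strand), a microtubule cross-linker of the late spindle, and CCNB2 (chr15:59105026-59105145, plus strand), cyclin B2, with the CHR element in capitals. PRC1 read 317, 286 and 249 in DMSO and 59.8, 76.6 and 81.2 in DTE (3.93-fold lower, quantile -0.90), and CCNB2 290.3, 299 and 266 in DMSO and 113, 108 and 103 in DTE (2.64-fold, quantile -0.31). Both were chosen for their promoters after values were seen.
PRC1: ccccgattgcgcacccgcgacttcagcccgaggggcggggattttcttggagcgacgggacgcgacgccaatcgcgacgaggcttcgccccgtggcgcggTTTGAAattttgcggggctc
CCNB2: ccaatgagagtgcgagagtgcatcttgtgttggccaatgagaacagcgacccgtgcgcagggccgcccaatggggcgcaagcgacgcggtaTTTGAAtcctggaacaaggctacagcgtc

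**Figure D3:**
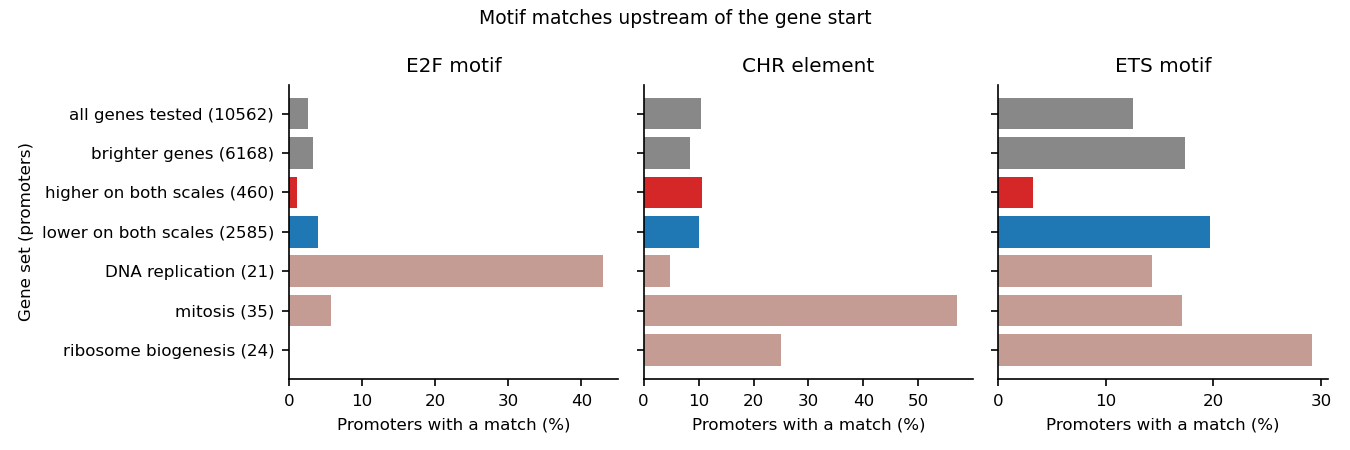
Share of promoters with at least 1 match to the E2F motif, the CHR element and the ETS motif in the 250 bases before the start, in percent, for gene sets with the number of promoters in brackets. Replication genes hold the E2F motif in 42.9% and mitotic genes the CHR element in 57.1% of promoters, and the ETS motif was in 19.7% of genes that fell and 3.26% of genes that rose. Brighter genes are those above the median gene in DTE or DMSO.

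Genes that build ribosomes fell nearly as a whole. Of 30 genes for ribosome biogenesis measured out of 46 listed, 29 fell (96.7%, against 22.3% of all genes) and none rose. Their median was -1.81 (quantile -0.76). LYAR, a nucleolar protein of rRNA processing, read 380.5, 353 and 315 in DMSO and 66.5, 70.5 and 71.9 in DTE (5.004-fold lower, quantile -1.25). NOB1, the endonuclease that finishes the 18S rRNA end, read 693, 756 and 682 in DMSO and 141, 167 and 133 in DTE (4.84-fold, quantile -1.18). MRTO4 and NOP16, assembly factors of the large subunit, fell 5.04-fold and 4.65-fold (quantile -1.29 and -1.14). The structural proteins of the cytosolic ribosome moved less. Of 38 measured out of 73 listed, 13 fell (34.2%, against 22.3% of all genes) and none rose, with medians of -1.09 and -0.14. RPL29 went from 183, 220.4 and 176 to 50.8, 53.5 and 61.3 (3.49-fold, quantile -0.73), while RPL30 was lower in deposited values (-1.29) and did not pass in quantile values (-0.21, adjusted p = 0.057).

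DNA repair genes fell in several pathways. For homologous recombination and the Fanconi anaemia pathway, 17 of 21 measured genes (39 listed) fell (81%, against 22.3% of all genes) and none rose. Their medians were -1.52 and -0.60. PALB2, the partner of BRCA2, and TOP3A, which resolves recombination intermediates, fell 3.98-fold and 4.08-fold (quantile -0.97 and -1.04). In base excision and single-strand break repair 14 of 18 measured genes (21 listed) fell (77.8%) and none rose (-1.40, quantile -0.45). Uracil glycosylase, UNG, read 306, 276 and 254 in DMSO, 122, 91.3 and 114 in DT, 153, 176 and 199 in E and 48.4, 48.99 and 43.6 in DTE (5.92-fold lower than DMSO, quantile -1.52). Its DTE arrays lay below those of every other arm in deposited values. PARP1, which senses strand breaks, fell 2.67-fold (quantile -0.36), PARP2 3.92-fold (quantile -0.90) and the scaffold XRCC1 3.68-fold (quantile -0.80).

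End joining genes were fewer and moved less in quantile values. Of 8 measured out of 16 listed, 6 fell (75%, against 22.3% of all genes) and none rose (-1.23, quantile -0.24). The nuclease Artemis, DCLRE1C, fell from 116, 108 and 73.2 to 21.7, 21.9 and 25.6 (4.23-fold, quantile -1.29), and the ligase partner XRCC4 from 214, 218 and 176 to 65.95, 67.6 and 65.03 (3.05-fold, quantile -0.51). For XRCC4 neither DT (195, 182 and 206) nor E (192, 185 and 188) came near the DTE values in deposited values. On that scale the DTE arrays as a whole stood at 63.5% of DT and 46.0% of E. On both scales 3 of the 8 genes were lower in DTE than in DT (17.8% of all genes) and 2 than in E (9.99%). The Ku subunits XRCC5 and XRCC6 fell 2.27-fold and 2.26-fold in deposited values, with small quantile values of -0.23 and -0.24. MGMT, which removes alkyl groups from guanine, read 42.1, 35.1 and 30.9 in DMSO and 18.9, 24.96 and 21.2 in DTE (-0.73 ± 0.15, limma adjusted p = 0.00011). After quantile normalization it did not pass (-0.16, adjusted p = 0.26). Of 4 mismatch repair genes measured out of 7 listed, 1 fell on both scales, MLH3 (-1.16, quantile -0.36). That is 25%, near the 22.3% of all genes. MSH3, PMS1 and PMS2 were lower in deposited values alone (-1.10, -1.04 and -1.10).

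Checkpoint genes fell in part, with 9 of 14 measured (20 listed) lower (64.3%, against 22.3% of all genes) and none higher. TOPBP1, which activates ATR, fell 4.47-fold (quantile -1.12) and CHEK1, the kinase below ATR, 3.52-fold (quantile -0.73). Of 14 p53 target genes measured out of 22 listed, 4 fell (28.6%, against 22.3% of all genes) and 2 rose (14.3%, against 4.24%). AEN, BAX, TP53I3 and CCNG1 fell 2.61-fold to 2.97-fold. PLK2 rose from 40.6, 32.02 and 30.3 to 72.4, 70.03 and 86.2 (2.23-fold, quantile 2.02) and TP53INP1 from 17.5, 20.1 and 16.8 to 27.6, 33.8 and 31.8 (1.71-fold, quantile 1.40). In deposited values both genes were higher still in DT, at 125, 102 and 115 for PLK2 and 64.6, 50.6 and 54.6 for TP53INP1. On that scale the DTE arrays as a whole stood at 63.5% of DT, and the part of that level in the difference was not tested. In the BCL2 family, which governs mitochondrial apoptosis, 4 of 14 measured genes (16 listed) fell, a share of 28.6% beside the 22.3% of all genes, and none rose. Besides BAX, the pro-apoptotic BID and the anti-apoptotic BCL2A1 fell 2.91-fold and 2.34-fold (quantile -0.67 and -0.65). BCL2L11 (BIM), a killer protein known to be restrained by ERK, read 142, 150.3 and 110.2 in DMSO and 104, 132 and 126 in DTE. It did not pass in deposited values (-0.15, adjusted p = 0.41) and was higher in quantile values (0.92).

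A small set of genes tied to quiescence and FOXO factors rose. Of 16 measured out of 21 listed, 4 rose (25%, against 4.24% of all genes) and 2 fell (12.5%, against 22.3%), with medians of -0.33 and 0.46. The transcriptional repressor BCL6 rose from 62.9, 64.5 and 48.1 to 120.4, 133 and 126 (2.18-fold, quantile 2.08). TXNIP, a brake on glucose uptake, read 81.2, 87.96 and 53.9 in DMSO, 322, 262 and 329 in DT, 95.2, 131 and 142 in E and 117, 141 and 161 in DTE (1.90-fold above DMSO, quantile 1.93). KLF9 and SESN3 rose 1.49-fold and 1.27-fold (quantile 1.57 and 0.98). SESN3, at 0.35 with all arrays, lost its call in deposited values when DMSO replicate 1 or 3 or any DTE replicate was left out, with differences of 0.24 to 0.39. The MYC antagonist MXI1 and KLF2 fell 3.13-fold and 2.26-fold (quantile -0.57 and -0.50). Against DT, 10 of the 16 were lower in DTE on both scales and none higher, where 17.8% of all genes were lower and 4.06% higher.

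Melanocyte identity genes fell in part. Of 8 melanocyte markers 7 were measured, all above background in both arms, and their summed intensity was 3227, 3361 and 2666 in DMSO and 1017, 1128 and 952 in DTE. Markers of other cell types are summed over other probes and other numbers of genes, so their sums are compared only between arms and not with the melanocyte sum. The 3 fibroblast genes measured of 8 listed summed to 36.3 to 48.02 in DMSO and 34.5 to 43.3 in DTE, and the 3 endothelial genes of 6 to 48.5 to 67.2 and 71.4 to 83.95. The 4 immune genes of 8 summed to 280.3 to 322.7 in DMSO and 154.8 to 164.3 in DTE, and the 5 keratinocyte genes of 7 to 70.2 to 85.2 and 61.2 to 67.8. In DMSO only 1 of the fibroblast, 2 of the endothelial, 3 of the immune and 2 of the keratinocyte genes were above background. A fall of the others could not be seen, so these sums do not show that such genes held steady. Of the endothelial genes KDR rose (mean 39.3 in DMSO, 58.4 in DTE), and VWF and TIE1 had no call. In the longer lineage list 10 of 17 measured genes (25 listed) fell (58.8%, against 22.3% of all genes) and none rose. Their medians were -1.52 and -0.56. MITF, the master regulator, read 574, 537 and 454 in DMSO, 126, 116 and 124 in DT, 319.7, 403 and 488 in E and 104, 114 and 124 in DTE (4.56-fold below DMSO, quantile -1.10). Its DTE arrays lay within or just below the DT range in deposited values, a scale on which the DTE arrays as a whole stood at 63.5% of DT.

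MLANA and TYR, pigment genes below MITF, had DTE below all other arms in deposited values. MLANA, an antigen of melanosomes, read 256, 299.7 and 245 in DMSO, 144, 126 and 144 in DT, 145, 193 and 219 in E and 66.96, 66.04 and 54.7 in DTE (4.27-fold below DMSO, quantile -1.01). Tyrosinase, TYR, read 956, 924 and 731 in DMSO, 519, 509 and 521 in DT, 670.1, 846 and 962 in E and 240.2, 284 and 188 in DTE (3.69-fold, quantile -0.85). PMEL, which forms the fibrils of melanosomes, read 684, 779.7 and 589.8 in DMSO, 508, 425 and 451 in DT, 944, 1202 and 1120.3 in E and 288, 308 and 238 in DTE, and was lower than DMSO in deposited (-1.30) but did not pass in quantile values (-0.22, adjusted p = 0.16). In these 3 genes every DTE array lay below every array of the other arms in deposited values, while PMEL was higher in E than in DMSO. On that scale the DTE arrays as a whole stood at 63.5% of DT and 46.0% of E. The part of that level in this order was not tested. TYRP1, an enzyme of melanin synthesis, read 19.96, 20.3 and 19.9 in DMSO, 37.2, 33.5 and 34.98 in DT, 18.9, 19.2 and 24.8 in E and 19.95, 20.8 and 23.2 in DTE, and so was not below the other arms. It was 0.08 in deposited values, which did not pass, and higher in quantile values (0.56). OCA2, a membrane protein of melanosomes, was likewise 0.13 and 0.53. Of the 17 lineage genes 11 were lower in DTE than in DT on both scales, where 17.8% of all genes were. Against E, 8 of the 17 were lower on both scales, beside 9.99% of all genes. LEF1, a partner of beta-catenin, and PAX3 fell 6.09-fold and 2.87-fold (quantile -1.56 and -0.48). SOX10, the neural crest factor above MITF, read 588, 654 and 510.1 in DMSO and 258, 284 and 272 in DTE. It was 2.14-fold lower in deposited values and stood with genes of its brightness after quantile normalization (-0.02, adjusted p = 0.89).

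Genes of dedifferentiated melanoma did not fall on both scales. Of 11 measured out of 17 listed none fell (22.3% of all genes did) and 2 rose (18.2%, against 4.24% of all genes). Their medians were -0.35 and 0.61 (0.47 with bounds). JUN, the AP-1 subunit, rose from 115, 129 and 101 to 147, 159 and 139 (1.30-fold, quantile 1.43), far below its 563, 483 and 521 in DT. In deposited values the DTE arrays as a whole stood at 63.5% of DT. SOX2, which was not well above background in DMSO, rose at least 1.15-fold. JUN lost its call in deposited values without DMSO replicate 3 (0.28) or DTE replicate 2 (0.32), and SOX2 lost it without DMSO replicate 1 or 3 or DTE replicate 3. The receptor AXL and tenascin C, TNC, were lower in deposited values alone (-1.29 and -1.10, quantile -0.22 and -0.14). NGFR and FN1 were lower in deposited values (-0.49 and -0.36) and higher in quantile values (0.61 and 0.62), and the deposited call of FN1 was lost without DMSO replicate 2 or DTE replicate 1 or 2 (-0.34 to -0.30).

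Among receptor tyrosine kinases some rose, and others fell at about the share of all genes. Of 24 measured out of 32 listed, 7 rose (29.2%, against 4.24% of all genes) and 5 fell (20.8%, against 22.3%), with medians of -0.17 and 0.36 (0.31 with bounds). CSF1R, the receptor of macrophage colony-stimulating factor, read 25.6, 30.3 and 25.6 in DMSO, 32.8, 34.4 and 23.8 in DT, 218, 191 and 262 in E and 84.4, 78.97 and 93.8 in DTE (3.16-fold above DMSO, quantile 2.50). ERBB4, a neuregulin receptor, read 12.4, 9.80 and 11.03 in DMSO and 24.4, 31.3 and 36.2 in DTE, at least 2.34-fold higher. MERTK, FGFR3, KDR and INSR rose 1.36-fold to 1.69-fold, and FGFR1 at least 1.70-fold. Of these, calls in deposited values were lost for MERTK without DMSO replicate 3 (0.30) or DTE replicate 3 (0.38), for KDR without DMSO replicate 3 (0.38) and for FGFR3 without DTE replicate 1 (0.38). Among those that fell, ERBB3, the neuregulin receptor of melanocytes, read 1011, 1056 and 823 in DMSO, 1136, 994 and 1195 in DT, 371, 423 and 474 in E and 247, 273 and 298 in DTE (3.53-fold below DMSO, quantile -0.78). The ephrin receptor EPHA2 read 145, 145 and 147 in DMSO, 67.3, 48.7 and 58.5 in DT, 270.2, 300.5 and 314 in E and 50.4, 50.9 and 53.8 in DTE (2.82-fold below DMSO, quantile -0.45). In deposited values its DTE arrays thus lay with those of DT while E lay above DMSO. On that scale the DTE arrays as a whole stood at 63.5% of DT, and the part of that level was not tested.

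Targets of YAP and TEAD rose in 4 of 12 genes measured out of 21 listed (33.3%, against 4.24% of all genes). Of the 12, 1 fell (8.33%, against 22.3%), and the medians were -0.12 and 0.81. ANKRD1, a muscle and stress-response protein, read 515, 509.7 and 513 in DMSO, 566, 401 and 552 in DT, 1597, 1485 and 1656 in E and 633, 666 and 812 in DTE (1.37-fold above DMSO, quantile 1.48). CRIM1, IGFBP3 and AJUBA rose 1.32-fold to 1.54-fold. Without DTE replicate 3 the deposited calls of ANKRD1 (0.34), CRIM1 (0.33) and IGFBP3 (0.35) were lost, and that of IGFBP3 was also lost without DMSO replicate 1 or 3 or another DTE replicate (0.29 to 0.44). FJX1 fell 2.72-fold (quantile -0.37). MYOF was lower in deposited (-0.74) and higher in quantile values (0.32), and AMOTL1 was -1.02 and 0.07, so both turned with the scale.

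Neuronal genes had the highest median in deposited values of the lists described. Of 31 measured out of 44 listed, 11 rose (35.5%, against 4.24% of all genes) and 1 fell (3.23%, against 22.3%), CRMP1 (-0.81, quantile -0.40). Their median was 0.21 (quantile 1.05), or 0.12 and 0.64 with genes not well above background at their bound, and the second of these was below the 0.81 of YAP and TEAD targets. KIF5C read 15.2, 14.1 and 17.9 in DMSO, 17.6, 17.8 and 15.8 in DT, 129, 186 and 201 in E and 80.7, 88.7 and 91.1 in DTE. Synapsin, SYN1, a protein of synaptic vesicles, read 33.5, 31.9 and 34.01 in DMSO, 23.5, 23.8 and 24.4 in DT, 152, 278 and 182 in E and 124, 124 and 100.2 in DTE (3.48-fold above DMSO, quantile 2.66). In both genes, in deposited values, DT lay near or below DMSO, and DTE lay between DMSO and E. On that scale the DTE arrays as a whole stood at 46.0% of E. The part of that level in this order was not tested.

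MAP2, which stabilises microtubules of dendrites, was higher in every treated arm. It read 70.4, 62.4 and 58.7 in DMSO, 119, 95.8 and 122 in DT, 324, 342 and 402 in E and 189, 222 and 252 in DTE (3.45-fold above DMSO, quantile 2.74). The calcium sensor of synaptic vesicles SYT1 had the same order, with 26.7, 26.8 and 22.01 in DMSO, 47.3, 38.8 and 46.4 in DT, 79.3, 77.3 and 81.1 in E and 62.1, 56.4 and 71.3 in DTE (2.52-fold, quantile 2.13). This order too was read from deposited values, where the DTE arrays as a whole stood at 46.0% of E. MAPT, RUNDC3A and SYP rose 1.73-fold to 2.36-fold. The other 4 that rose, SCG3, DPYSL5, KIF5A and SYT4, were not well above background in DMSO and were at least 1.09-fold to 1.85-fold higher. SYP had probe sets called in opposite directions, which were represented by the brighter one. CRMP1, which fell, lost its call when each array was centred on its median gene (-0.17). Against DT 11 of the 31 were higher in DTE on both scales (4.06% of all genes) and none lower. Against E 1 was higher (0.219% of all genes) and 2 were lower (9.99%), and the list's median was -0.79 in deposited and 0.14 in quantile values.

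RE1 is longer than could be searched as exact letters, so its left part, TTCAGCACC, stood for it. It was found on either strand in 1 of 23 neuronal genes with a promoter (4.35%), SYN1, and in 0.256% of all genes tested. The stretch around it is given (chrX:47619988-47620107, minus strand) with the match in capitals. No match says only that these letters were not in the 250 bases searched.
SYN1: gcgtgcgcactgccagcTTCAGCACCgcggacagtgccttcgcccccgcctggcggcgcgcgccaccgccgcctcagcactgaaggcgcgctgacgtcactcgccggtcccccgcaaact

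**Figure D4:**
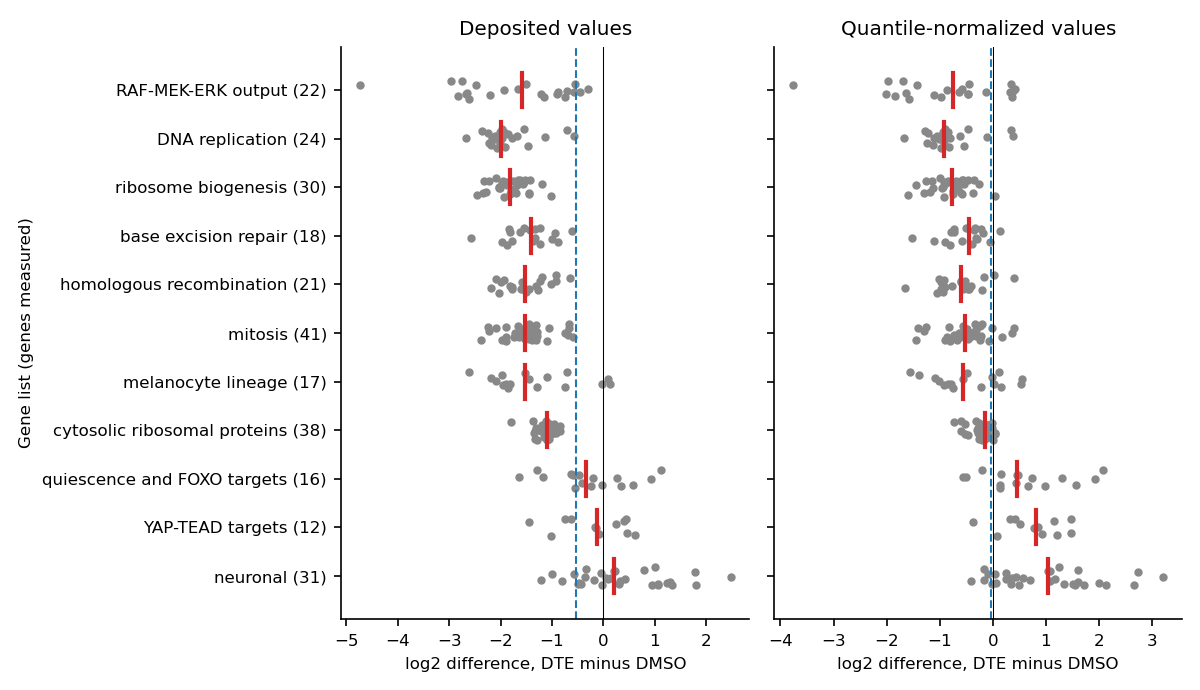
log2 difference between DTE and DMSO for each measured gene (points) of 11 lists, with the list's median (red) and the median of all genes tested (dashed blue), in deposited values on the left and after quantile normalization on the right. The number of genes measured is in brackets. DNA replication and ribosome biogenesis have the lowest medians on both scales, and the neuronal list has the highest in deposited values.

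Few histone deacetylases changed on both scales. Of 18 histone deacetylases and sirtuins, all measured, 2 fell (11.1%, against 22.3% of all genes) and none rose, while 8 were lower in deposited and higher in quantile values. The targets of entinostat were among those, with HDAC1 at -0.79 and 0.30 and HDAC3 at -0.59 and 0.50. HDAC2 was -0.61 and 0.19 (adjusted p = 0.15 in quantile values). HEXIM1, an inhibitor of elongation factor P-TEFb, also turned with the scale (-0.44 and 0.65), and its deposited call was lost without DTE replicate 1 (-0.37). Of 28 chromatin writers and readers measured out of 37 listed, 13 fell (46.4%) and none rose (-1.11, quantile -0.18). The acetyltransferase KAT5 fell from 91.7, 110.3 and 76.3 to 23.2, 25.5 and 26.4 (3.67-fold, quantile -1.05). DNMT1, the maintenance DNA methyltransferase, and the H3K9 methyltransferases SUV39H1 and SUV39H2 fell 3.76-fold, 4.02-fold and 4.35-fold (quantile -0.83, -1.41 and -1.24). Of 11 genes known to rise with inhibitors of class I deacetylases (14 listed), 2 rose (18.2%, against 4.24% of all genes) and 1 fell (9.09%). CLU, an extracellular chaperone, rose from 15.6, 20.1 and 16.1 to 38.7, 46.4 and 46.2 (2.54-fold, quantile 2.06).

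No measured gene of the metabolic and housekeeping lists rose on both scales, where 4.24% of all genes did. With so few genes measured, an absence of rises cannot be told from that share. In glycolysis 1 of 8 measured genes (23 listed) fell (12.5%, against 22.3% of all genes), hexokinase 2, HK2, from 186, 190.2 and 147 to 27.8, 33.6 and 35.5 (5.40-fold, quantile -1.47). GAPDH read 238, 260.4 and 189 in DMSO and 89.3, 94.7 and 99.02 in DTE, -1.27 in deposited and -0.16 in quantile values (adjusted p = 0.094). In the respiratory chain 4 of 12 (36 listed) fell (33.3%), with CYC1, a subunit of complex III, 3.67-fold lower (quantile -0.87). Of 7 commonly used reference genes (16 listed) 1 fell (14.3%), IPO8, and their medians were -1.21 and -0.13. The genes brightest in DMSO had smaller differences. TMSB10, an actin-binding peptide, read 6333, 6920.0 and 6078 in DMSO and 4259, 4391 and 4615 in DTE (-0.54, quantile 0.04), and RPL27 and RPS21 were at -0.84 and -0.95 (quantile -0.09 and -0.19). The small RNAs SNAR-B1 and SNAR-C1, near-identical copies whose probes may not tell them apart, were at -0.55 and -0.60.

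Stress, immune, sterol and transcription lists were read against the 4.24% of all genes that were higher and the 22.3% that were lower. Sterol synthesis and uptake had 1 of 16 measured genes higher (6.25%) and 3 lower (18.8%), and the integrated stress and unfolded protein response 2 of 13 higher (15.4%) and 3 lower (23.1%). The interferon response had 3 of 19 lower (15.8%), lysosome and autophagy 2 of 18 (11.1%), antigen processing 2 of 6 (33.3%) and RNA polymerase II transcription 7 of 16 (43.8%), with none higher in these lists. XBP1, a factor of the unfolded protein response, fell 2.81-fold (quantile -0.58) and MED1, a Mediator subunit, 3.23-fold (quantile -0.62).

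DTE was then set against each of its parts, in comparisons that share the DTE arrays and are not independent of the one above. Against DT 592 genes were higher on both scales (4.06%) and 2598 lower (17.8%). Against E 32 were higher (0.219%) and 1457 lower (9.99%). The level of the arrays was 63.5% of DT and 46.0% of E. Deposited values alone gave 597 higher (4.09%) and 7869 lower (54%) against DT, and 36 higher (0.247%) and 11453 lower (78.5%) against E. Quantile values alone gave 2386 higher (16.4%) and 2607 lower (17.9%) against DT, and 1466 higher (10.1%) and 1457 lower (9.99%) against E. On both scales and against all 3 other arms, 12 genes were higher in DTE (0.0823%) and 370 lower (2.54%). Of the 618 genes that rose from DMSO, 380 (61.5%) were also higher than in DT and 22 (3.56%) than in E. Of the 3245 that fell, 1545 (47.6%) were also lower than in DT and 1081 (33.3%) than in E.

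Of the 12 genes above all arms, 3 were above the median gene in level. FLG read 37.96, 30.8 and 36.9 in DMSO, 61.7, 44.6 and 62.5 in DT, 176, 164 and 181 in E and 223, 189.9 and 265 in DTE. Its difference from E was 0.37 ± 0.16 (limma adjusted p = 0.036, quantile 1.52). JAKMIP2, a microtubule-binding protein, read 7.63, 8.67 and 7.49 in DMSO, 28.7, 27.9 and 31.3 in DT, 30.6, 39.6 and 42 in E and 49.03, 56.5 and 58.9 in DTE, and PRUNE2 12.6, 10.9 and 10.96 in DMSO, 30.6, 25.2 and 26.1 in DT, 22, 25.1 and 28.8 in E and 32.5, 40.1 and 49.5 in DTE. No DTE array of these genes lay below an array of another arm.

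The 8 genes furthest below all arms held enzymes, a receptor and a feedback phosphatase. S100A16, a calcium-binding protein, read 217, 269 and 206 in DMSO, 178, 163 and 185 in DT, 132, 158 and 173 in E and 42.1, 39.01 and 42.5 in DTE. It differed from DT by -2.09 (quantile -1.41) and from E by -1.90 (quantile -0.76). EDNRB, the endothelin receptor of melanocytes, read 316, 318 and 268 in DMSO, 288, 254 and 285 in DT, 268, 324 and 369 in E and 83.2, 92.8 and 75.1 in DTE. DMSO, DT and E overlapped for this gene, and every DTE array lay below the lowest array of the others.

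KRTAP21-1, a hair keratin-associated protein, went in opposite directions in DT and DTE. It read 66.1, 72.7 and 91.1 in DMSO, 184, 154 and 215 in DT, 65.9, 80.4 and 97.4 in E and 20.6, 23.1 and 18.1 in DTE, which was -3.16 from DT (quantile -2.75). ITPA, which clears inosine triphosphate, read 574, 611 and 465 in DMSO, 358, 360.4 and 343 in DT, 301, 330.0 and 316 in E and 105, 97.6 and 105 in DTE. TTC27 and SCFD2 also had both DT and E between DMSO and DTE, from 230.3, 236 and 187 in DMSO to 36.4, 45.1 and 42.9 in DTE for TTC27. DUSP6, described above, differed from DT by -1.63 (quantile -0.90) and from E by -3.00 (quantile -1.86).

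**Figure D5:**
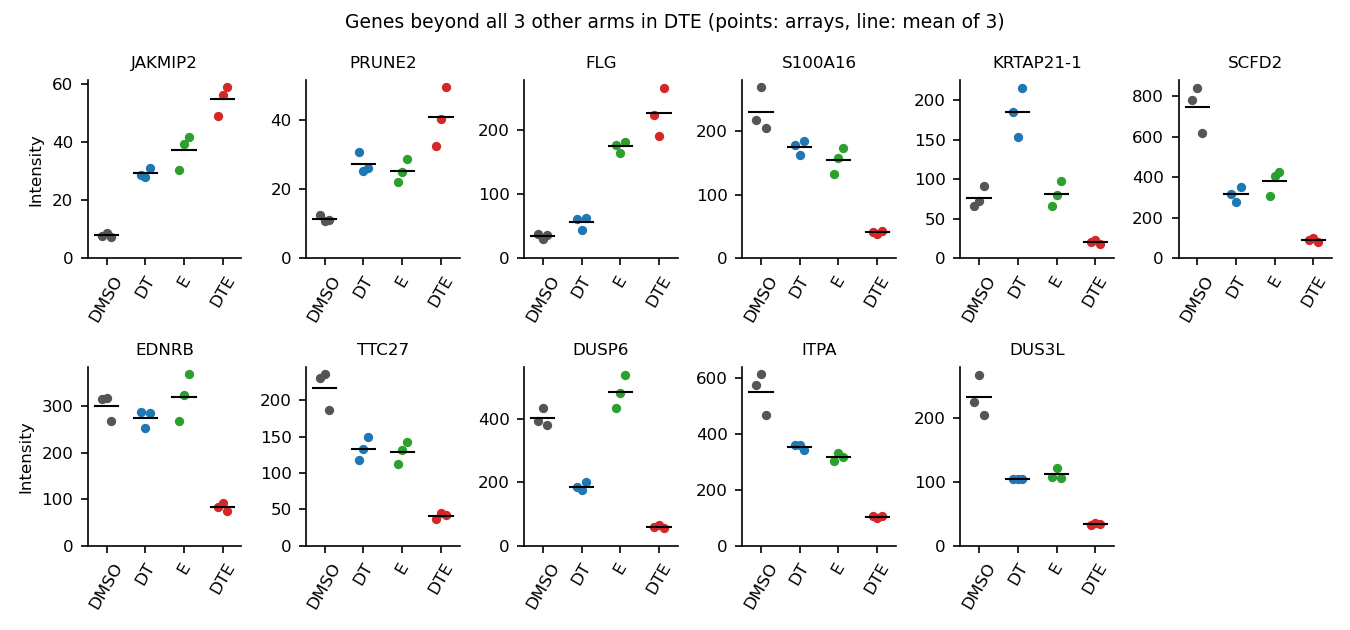
Intensity on each array (points) in the 4 arms, with the mean of 3 (line), for the 3 genes above the median level that were higher and the 8 that were furthest lower in DTE than in all 3 other arms on both scales. The axes start at 0 and differ between genes. In DTE, S100A16 lies at 39.01 to 42.5 and every other array of that gene at or above 132.

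DUS3L, which places dihydrouridine in tRNA, read 226, 268 and 205 in DMSO, 104, 104 and 104 in DT, 108, 122 and 106 in E and 31.97, 35.9 and 33.5 in DTE, and is 1 of the 15 deepest falls from DMSO. Its promoter holds the ETS motif CCGGAAG, the core bound by factors such as ELK1 that ERK phosphorylates, and the 120 bases before the start are given with the motif in capitals (chr19:5791164-5791283, minus strand).
DUS3L: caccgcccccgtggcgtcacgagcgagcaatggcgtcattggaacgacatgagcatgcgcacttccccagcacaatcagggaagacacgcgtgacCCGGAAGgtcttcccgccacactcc

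Over all genes the ETS motif was found on either strand in 12.5% of promoters. It was in 19.7% of the 2585 promoters of genes that fell, in 3.26% of the 460 of genes that rose and in 4.26% of the 2325 of genes called on neither scale. Brightness moved with the motif, since 17.4% of the promoters of genes above the median level held it, and the part of brightness in the difference was not tested. Genes lower in deposited and higher in quantile values held it in 13.9% of 924 promoters. Ribosome biogenesis genes held it in 29.2% of 24 promoters, ERK output genes in 1 of 10 (10.0%) and the neuronal genes in 0 of 23. Median GC content was 63.2% in promoters of genes that fell and 62.8% in those of genes that rose, and the E-box CACGTG, which MYC binds, was in 9.98% and 6.30% of them. Over all genes tested median GC content was 62.8% and the E-box was in 7.92% of promoters. Promoters of genes above the median level held the E-box in 9.1%, near its share in genes that fell.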

How the data were processed

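The data are intensities from 12 Affymetrix whole-transcript arrays of SK-MEL-2 cells, 3 in each of 4 groups. Per the labels' protocols, RNA was isolated after 24 hours of treatment and an ERCC spike-in mix was added before extraction. The authors deposited 1 linear intensity for each probe set (2.345 to 8595). Per the submitters' processing notes, RMA and Transcriptome Analysis Console were used, without versions. The output of RMA is log2 values of 1 distribution for all arrays, which the deposited values were not, and the step that made the difference is not stated. The design assumed log2 values, so log2 of the deposited intensities was taken, with no pseudocount and no filter. That rescaling could move every difference between groups, and precision is limited by the number of arrays.

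Of 29398 probe sets, 14750 (50.2%) could be assigned to 1 gene by the platform's annotation and RefSeq symbols. The other 14648 entered no gene test. For the 156 genes with several probe sets the one with the highest mean stood for the gene, which left 14582 genes. In 4 of them (CADM3, RNF32, SEPTIN4 and SYP) the probe sets were called in opposite directions between DTE and DMSO.

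The model had a mean for each of the 4 groups and was fitted to the 12 arrays together with lmFit and eBayes of limma 3.58.1 in R 4.3.3. Benjamini-Hochberg adjustment was made within each comparison over all genes, and adjusted p under 0.05 was called. The same fit was run after quantile normalization over genes. The level of the arrays was tested by exact permutation. The fit was tested on simulated data with independent noise and no shift of whole arrays. That test cannot show how the scaling between arrays affects the calls. Where an arm's mean was no higher than the level that 95% of the dimmest 25% of genes did not exceed, the arm counted as not well above background, and folds against them are lower bounds taken at that level. Promoters of RefSeq (GRCh38.p14) were searched for exact letters.

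The members, lists, comparisons and alternatives were chosen with earlier results of these data known, so lists are described by counts and medians without a test. Named genes were the 15 largest rises and falls called on both scales whose arrays did not overlap and whose higher group mean was above the median gene. To these were added up to 8 genes in each direction that differed from all 3 other arms, in each described list up to 4 genes of lowest adjusted p, 22 genes fixed by name, of which 14 are reported here, and the 5 brightest in DMSO. Genes named outside this rule, such as those of the paragraphs on receptors, FOXO, YAP and neuronal genes that rose, were chosen after their values were seen. Alternatives were other scalings, leaving out each array, a replicate block, a filter on dim genes, fitting only the arrays compared, an intensity trend, array weights and means of probe sets. No pairing by replicate number was seen between DTE and DMSO, where the deviations of same-numbered arrays correlated at -0.091, 0.076 and -0.081. Those values cannot show whether same-numbered arrays were prepared together.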

Additional observations from a re-analysis of the deposited data

Results flagged for a closer look

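Probe sets that could not be named for 1 gene were left out of the comparisons, and they also held differences between DTE and DMSO. Of the 14648 such probe sets, 594 (4.06%) were higher and 2151 (14.7%) lower in DTE than in DMSO on both scales by limma. Among the 14582 named genes these shares were 4.24% and 22.3%. What these probe sets measure is not analysed here.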

How the results depend on the processing

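The scaling between arrays set the counts. Between DTE and DMSO the 621 higher and 8869 lower genes of deposited values became 2989 and 3272 with quantile normalization and 5518 and 4624 with each array centred on its median gene. Against DT the 597 higher and 7869 lower became 2386 and 2607, or 3519 and 3737 with centring. Against E the 36 and 11453 became 1466 and 1457, or 5274 and 2812. With only genes above the median, where fewer genes were tested, 217 were higher on deposited values and 217 on both scales. Over all genes the array level differed by -0.60 and not -0.97. Of 31 lists with at least 5 measured genes, 29 had more genes lower than higher in deposited values, 18 after quantile normalization and 23 with centring.

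Without 1 array, DTE against DMSO gave 522 to 623 higher and 8051 to 9082 lower genes, and 520 to 618 and 2819 to 2987 on both scales. Against DT these were 492 to 542, 6710 to 7712, 491 to 540 and 2205 to 2302, and against E 30 to 39, 10768 to 11688, 27 to 32 and 1132 to 1277. The level difference was -1.07 to -0.92 and the lists with more lower genes were 29 or 30. The replicate number as a replicate block gave 596 higher and 8687 lower genes between DTE and DMSO (595 and 3206 on both scales), although no pairing by number was seen. An intensity trend, array weights, means of probe sets and a fit of the DTE and DMSO arrays alone kept these counts within 1.5 times.

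Of 174 named genes, 16 turned sign with quantile normalization: AMOTL1 to 0.072, MYOF to 0.32, BCL2L11 to 0.92, HEXIM1 to 0.65, HDAC1 to 0.30, HDAC2 to 0.19, HDAC3 to 0.50, MAP2K1 to 0.094, MAP2K2 to 0.27, TMSB10 to 0.04, EPHA4 to 0.32, FN1 to 0.62, HBEGF to 0.34, IER3 to 0.38, KLF10 to 0.36 and NGFR to 0.61. With centring 12 turned: BCL2L11 to 0.49, HEXIM1 to 0.20, HDAC2 to 0.036, HDAC3 to 0.053, MAP2K2 to 0.10, TMSB10 to 0.10, SNAR-B1 to 0.090, SNAR-C1 to 0.045, EPHA4 to 0.070, FN1 to 0.28, HBEGF to 0.083 and NGFR to 0.16. The cause was not tested. Their deposited calls were lost for 19 genes with quantile normalization, 7 with centring and SESN3 with the block. When 1 array was left out, OCA2, which had no call in deposited values, changed sign (-0.013 without DMSO replicate 1), and no other named gene did. Centring on spike-in or control probe sets was not run, since no such probe set could be recognised by its name. Intensities near background limit the dim genes to bounds.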

Other observations

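Gene families outside the lists were chosen after their values were seen, by symbol and among protein-coding genes. Of 29 protocadherins, adhesion proteins of neurons and other cells, 10 were higher in DTE than in DMSO on both scales (34.5%, against 4.24% of all genes) and none lower, with a median difference of 0.16 in deposited and 1.10 in quantile values. Of these 10, PCDH11X was not well above background in either arm and PCDH18 and PCDH19 not in DMSO, which leaves 7 with a measured fold, PCDH10, PCDH17, PCDH9, PCDHB3, PCDHB4, PCDHB5 and PCDHB8. The last 4 are close relatives in 1 gene cluster, and whether their probes tell them apart was not tested. Of 21 tetraspanins 5 were higher (23.8%) and 3 lower (14.3%, against 22.3% of all genes), and TSPAN19 of the 5 was not well above background in either arm. Of 39 kinesins 3 were higher (7.69%), KIF5A, KIF5C and KIF12, and 12 lower (30.8%), not far from the shares of all genes.

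In several other families the share of genes that were lower was above that of all genes. Of 73 mitochondrial ribosomal proteins 55 were lower (75.3%, against 22.3% of all genes) and none higher, with a median of -1.45 (quantile -0.47). Of 44 DEAD-box and DEAH-box helicases 26 were lower (59.1%), of 16 centromere proteins 13 (81.3%), of 16 tRNA synthetases 7 (43.8%) and of 28 Mediator subunits 14 (50%). Among 460 protein-coding ZNF genes 11 were higher (2.39%) and 96 lower (20.9%), close to the share of all genes for the falls. By RNA class, 24.6% of 11720 protein-coding genes and 14.6% of 1361 long noncoding RNAs were lower, and 4.34% and 4.63% were higher. The noncoding genes were dimmer, with a median intensity of 14.4 against 44.1.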
